A study of Mus musculus with 6 samples.

Results

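The scavenger receptor genes Msr1, Marco, Cd36, Scarb1, Stab1 and Cd5l were followed in glomeruli of mice with and without an autoimmune kidney disease. They were taken by the array's gene name and are 6 of its 34844 names. They are covered by 8 of its 55681 probes, 2 each for Msr1 and Scarb1 and 1 for each other gene. All 8 probes were bright enough in at least 1 group to be tested.

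Glomeruli came from male mice aged 4 months. BXSB/MpJ-Yaa males carry on the Y chromosome a copied end piece of the X chromosome, the Yaa locus, and develop glomerulonephritis. BXSB/MpJ-Yaa+ males have the wild-type Y chromosome and served as controls. Both strains share the recombinant inbred BXSB background, which was derived from C57BL/6 and SB/Le mice, and neither was given an agent. Glomeruli were isolated with beads perfused into the kidney, and the 6 populations of glomeruli from each strain were combined in pairs, so that each of the 3 arrays per strain holds a pool of 2. The p-values therefore measure the spread between pools. None of the 6 genes lies on the X chromosome.

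Scavenger receptors are a group of unrelated proteins that bind modified lipoproteins, dying cells, microbes and other negatively charged ligands, and are sorted into lettered classes by their structure. Class A receptors such as Msr1 and Marco have a collagen-like stem and sit mainly on macrophages. Class B receptors such as Cd36 and Scarb1 cross the membrane at both ends and handle fatty acids and lipoprotein lipids, also outside macrophages. Stab1, of class H, is found on sinusoidal endothelium and some macrophages, and Cd5l is a secreted protein of macrophages built from scavenger receptor cysteine-rich domains.

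Signals are given as levels, meaning log2 of the background-subtracted spot signal minus the array's 75th percentile, so that a level of 0 is the 75th percentile and a difference of 1 is a 2-fold change. That percentile lay between 235.1 and 377.3 signal units, 50.5% to 59.8% of spots were well above background, and no spot was saturated. Levels of different probes cannot be set against each other, and the number of arrays limits the precision. Title, description and genotype were used for the groups, and the source name contradicts them throughout. Tlr7, a gene of the copied X piece, was at levels of 1.63, 1.67 and 1.604 on the arrays labelled control and 2.48, 2.60 and 2.57 on those labelled Yaa, so the groups did not overlap. The arrays shared 1 slide, with the strains in separate columns of it, so a column effect and the strain cannot be told apart. The 5 podocyte markers tested (Nphs1 was not) had mean levels of 5.73 to 6.26 on the 6 arrays, and the 10 endothelial markers 4.50 to 4.92. Proximal tubule markers had mean levels of 2.48 to 3.21 in controls and 1.78 to 2.90 in Yaa. As these levels come from different probes, they do not measure the share of each cell type.

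The probes of Msr1 and Scarb1 differ in the transcripts they can detect, which matters for how their values are read. For each of these genes the array lists 1 probe for several RefSeq transcripts (the shared probe) and 1 for transcript variant 1 alone among RefSeq entries (the variant 1 probe). The shared Msr1 probe lies at chr8:40709296-40709355 and the variant 1 probe at chr8:40689158-40689217. The variant 1 probe of Scarb1 lies at chr5:125761540-125761599. The probe of Cd36 lies at chr5:17288600-17288659, that of Stab1 at chr14:31952288-31952347 and that of Cd5l at chr3:87174823-87174882. For Marco the array gives chr1:122371115-122371134, which covers 20 of the probe's 60 bases. All positions are on mm9, per the file headers, with Cd5l on the plus strand and the others on the minus strand, and exons or untranslated regions under the probes were not assigned here. The sequences of the probes behind the Msr1 and Cd5l rises and of the variant 1 probe of Scarb1 are shown, whole for the shared Msr1 probe and as the first 30 of 60 bases for the others.
Msr1 shared: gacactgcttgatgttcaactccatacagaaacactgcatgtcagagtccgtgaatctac
Scarb1 variant 1: aatgctttttgttttggagtggtagtaaaa
Cd5l: atggtagagacttgaggagttgggacctcg

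Cd5l, Msr1 and Cd36 rose in Yaa glomeruli, while Marco, Scarb1 and Stab1 did not pass the test. By limma with Benjamini-Hochberg adjustment over 20716 genes and a threshold of 0.05, 3 of the 6 genes were higher and none lower. Over all genes tested 3.81% passed, with 2.96% higher and 0.85% lower. The median log2 fold change of Yaa over control was 0.73 for the 6 genes and -0.11 for all genes. The same 3 genes had groups that did not overlap, with every Yaa array above every control array, as 7.81% of all genes had (25.2% in either direction). Cd5l was kept for testing through the Yaa arrays alone, where it is high. Its place in these counts is therefore partly set by the filter and is weaker support than that of Msr1 and Cd36.

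**Figure D1:**
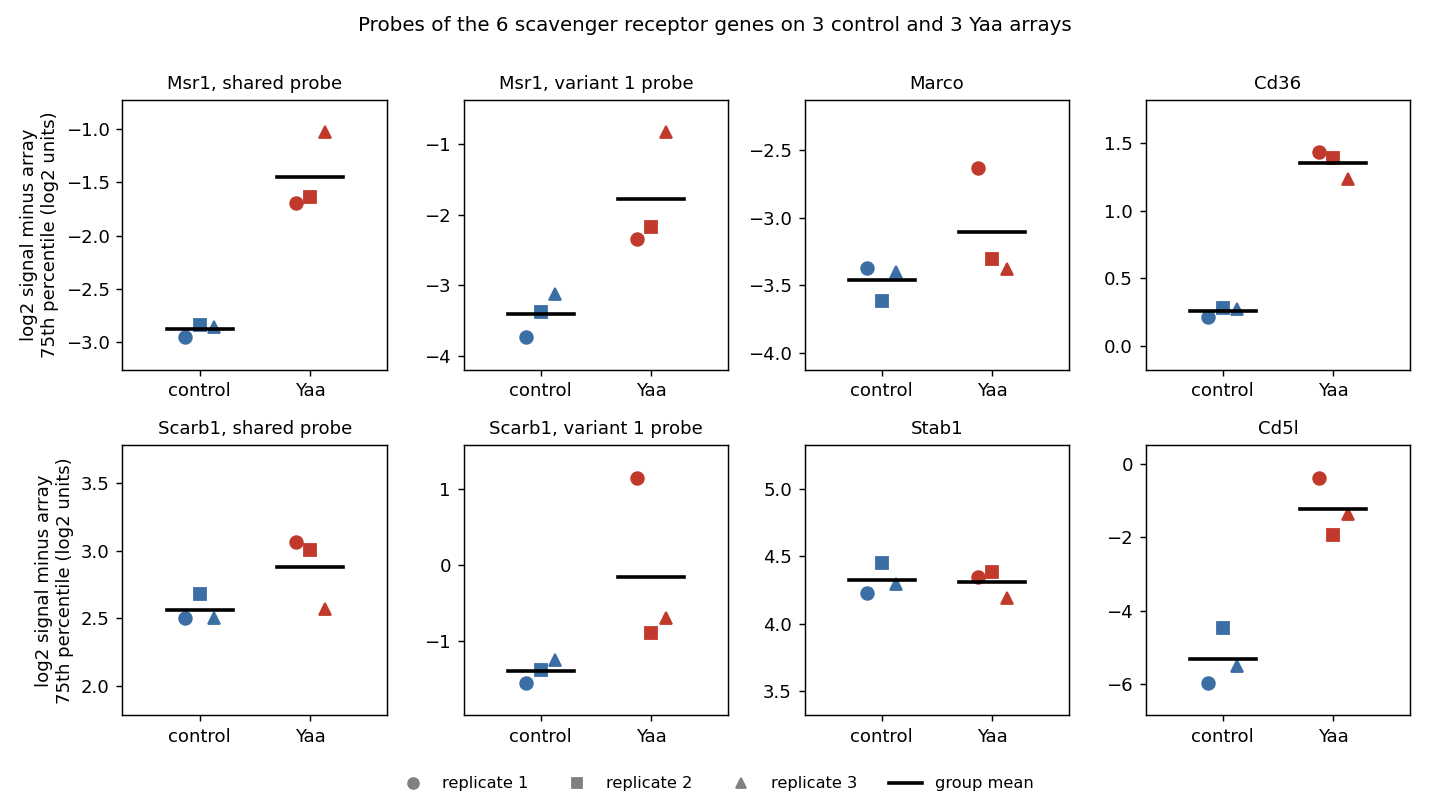
Each panel shows 1 probe, with the level (log2 signal minus the array's 75th percentile) on the vertical axis for 3 control (blue) and 3 Yaa (red) arrays, symbols for the replicate number and a black line for the group mean; panels differ in their vertical range. Groups are apart for both Msr1 probes, Cd36, Cd5l and the variant 1 probe of Scarb1, and they overlap for Marco, the shared Scarb1 probe and Stab1.

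Msr1 encodes class A scavenger receptor 1, which takes up modified lipoproteins and bacterial ligands. The shared probe had levels of -2.95, -2.84 and -2.86 in control pools 1 to 3, and of -1.69, -1.64 and -1.03 in Yaa pools 1 to 3, the order used throughout. All Yaa arrays were above all control arrays, and Yaa replicate 3 was the highest. The log2 fold change was 1.43 ± 0.20 (SE, n = 3 arrays per group, limma adjusted p = 0.0108), a 2.69-fold difference with a 95% interval of 1.94 to 3.73. The probe was dim but well above background on all 6 arrays, with signals of 31.0, 32.9 and 36.5 in controls and 76.3, 81.6 and 185 in Yaa. With normexp background correction, which adds an offset to low signals, the log2 fold change was 0.60 (limma adjusted p = 0.0463). The call ended without control replicate 1 (limma adjusted p = 0.0578), control replicate 2 (0.0552) or control replicate 3 (0.0621), and with no filter on dim probes (0.0547).

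The variant 1 probe of Msr1 moved the same way with a wider spread. Its levels were -3.73, -3.38 and -3.12 in controls and -2.34, -2.17 and -0.83 in Yaa, so that Yaa replicate 3 again stood above the other Yaa arrays. The log2 fold change was 1.63 ± 0.40, which did not pass in the fit over 28598 probes (limma adjusted p = 0.0994), where the shared probe did (0.0114) and 3.27% of all probes were called and 2.62% were called higher. Its groups did not overlap, as for 7.25% of probes in this direction. The variant 1 level minus the shared level was -0.53 ± 0.26 (SD, n = 3) in controls and -0.33 ± 0.46 in Yaa. These differences overlapped between the groups, with p = 0.60 in a two-sided exact permutation test, whose smallest p for 3 against 3 is 0.10. Within same-numbered pairs this difference was higher in Yaa in 3 of 3, by 0.13, 0.0059 and 0.46 (p = 0.25 in the exact sign-flip test).

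Marco, the other class A receptor here, binds bacteria and particles and marks macrophages of the splenic marginal zone, among others. Its levels were -3.37, -3.62 and -3.40 in controls and -2.63, -3.31 and -3.38 in Yaa. Yaa replicate 1 was the highest, replicate 2 lay just above the controls and replicate 3 lay within their range. The log2 fold change was 0.36 ± 0.22 with a 95% interval of -0.17 to 0.88 (limma adjusted p = 0.469), and it was 0.12 without Yaa replicate 1. The probe was dim, with signals of 19.1 to 39.8 on the 6 arrays, and normexp correction turned its direction (-0.02). The 4 B cell markers, which come from cells that accompany such macrophages in spleen, had a mean level of 0.61 on Yaa replicate 1 against -1.14 and -0.29 on Yaa replicates 2 and 3 and -0.96 to -0.22 in controls. The part of these cells in the Marco value was not tested.

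Cd36 encodes the class B receptor that takes up long-chain fatty acids and oxidised lipoproteins, and is known from macrophages, platelets, fat cells and capillary endothelium. It rose from levels of 0.21, 0.28 and 0.27 in controls to 1.43, 1.39 and 1.23 in Yaa. The gap between the groups was wide against the spread within them, with an SD of 0.04 in controls and 0.10 in Yaa. The log2 fold change was 1.097 ± 0.12 (limma adjusted p = 0.00373), a 2.14-fold difference with a 95% interval of 1.75 to 2.61. Cd36 passed in each alternative run, with log2 fold changes of 0.99 (normexp) to 1.16. Among markers of other Cd36-bearing cells, 0 of 4 tested platelet, 0 of 3 tested adipocyte and 0 of 10 endothelial markers passed. Their medians were 0.44, -0.30 and -0.29. By limma's unadjusted p under 0.05, 2 of the platelet, 0 of the adipocyte and 4 of the endothelial markers were counted, beside 16.1% of all genes. The 4 endothelial markers went both ways. Mean platelet marker levels ran from -1.53 to -1.08 in controls and -1.14 to -0.72 in Yaa. Of the fat cell markers, Lep was well above background on none of the 6 arrays and Cfd on all 6. Plin1 and Cidec were so on 3 control and 2 Yaa arrays, and Adipoq on 2 arrays of each group. Fewer cells of a type and less RNA per cell cannot be told apart in these bulk samples.

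Scarb1 encodes the receptor for high-density lipoprotein, which passes cholesterol esters between lipoproteins and cells. On the shared probe its levels were 2.50, 2.68 and 2.50 in controls and 3.06, 3.00 and 2.57 in Yaa. Yaa replicates 1 and 2 were above all controls and Yaa replicate 3 was within their range. The log2 fold change was 0.32 ± 0.17 with a 95% interval of -0.09 to 0.72 (limma adjusted p = 0.412). The variant 1 probe, whose first bases are printed above, behaved otherwise, at levels of -1.54, -1.37 and -1.25 in controls and 1.15, -0.90 and -0.70 in Yaa. Here all Yaa arrays were above all controls and Yaa replicate 1 was far above the rest. Its log2 fold change was 1.24 ± 0.51 (limma adjusted p = 0.310 in the fit over probes), and 0.59 without Yaa replicate 1 (0.108).

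The gap between the Scarb1 probes narrowed on Yaa replicate 1 above all. The variant 1 level minus the shared level was -4.04, -4.05 and -3.75 in controls and -1.91, -3.90 and -3.27 in Yaa. The groups overlapped, since Yaa replicate 2 lay within the control range, with p = 0.20 in the two-sided exact permutation test. Between same-numbered pools the gap was smaller in Yaa in 3 of 3 pairs, by 2.13, 0.16 and 0.49 (p = 0.25 in a two-sided exact sign-flip test, the smallest that 3 pairs allow). The mean of both probes gave Scarb1 a log2 fold change of 0.78 (limma adjusted p = 0.273), against 0.32 for the shared probe alone. Pdzk1, the adaptor that holds Scarb1 at the membrane and is rich in proximal tubule, was at 3.92, 3.39 and 3.19 in controls and 2.42, 3.66 and 3.34 in Yaa. It was lowest on the Yaa array where the variant 1 probe was highest, as were the proximal tubule markers, with a mean level of 1.78 on that array. Their part in the Scarb1 values was not tested.

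Stab1 encodes stabilin 1, which clears acetylated lipoproteins and extracellular matrix fragments. Its levels were 4.22, 4.45 and 4.29 in controls and 4.34, 4.38 and 4.19 in Yaa. The groups overlapped, and the mean of controls was 4.32 ± 0.12 (SD) against 4.31 ± 0.10 in Yaa. The log2 fold change was -0.02 ± 0.13 (limma adjusted p = 0.961), and its 95% interval, -0.32 to 0.29, spans from 0.80-fold to 1.22-fold. Its sign changed with the scaling, as it was 0.05 with quantile normalization and 0.02 with median scaling. Endothelial markers, a list not chosen for sinusoidal endothelium, had 0 of 10 members past the limma test, 4 at an unadjusted p under 0.05 (16.1% of all genes) and a median of -0.29. These 4 went both ways, with Kdr at -0.66, Flt1 at -0.50, Eng at -0.44 and Plvap at 0.71. Of the sinusoidal and lymphatic endothelial markers 3 were tested and 0 passed, with 2 (Lyve1 and Pdpn) at limma's unadjusted p under 0.05. The fitted log2 fold changes were -2.56 for Lyve1, -0.51 for Pdpn, which is the median, and -0.34 for Flt4. Lyve1 was well above background on no Yaa array, and as a bound it was at least 1.54 lower in Yaa. Pdpn was at levels of 5.33 to 5.89, and this list was not shown to mark endothelium alone in glomeruli. The part of endothelial cells in the Stab1 value was not tested.

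Cd5l, also known as AIM, is a secreted protein of tissue macrophages that binds lipids and dying-cell debris and keeps macrophages alive. It had the largest fitted rise of the 6 genes. Its levels were -5.96, -4.48 and -5.51 in controls and -0.38, -1.93 and -1.36 in Yaa, so that the lowest Yaa array was above the highest control array. In controls none of the arrays had the probe well above background, with signals of 3.84, 10.5 and 5.79, and 1 of the 3 control values was a surrogate set by the scanner software. On the Yaa arrays the signals were 190, 66.5 and 147, all well above background. Cd5l was at least 7.57-fold higher in Yaa (2.92 on the log2 scale), where the control value is, per array, the higher of its own and the lowest level well above background. The fitted log2 fold change was 4.10 ± 0.49 (limma adjusted p = 0.00569), and 1.27 with normexp correction (0.0358), which lies under that bound. The call held in each alternative run, with the largest adjusted p, 0.0451 by limma, with the replicate number as a block.

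**Figure D2:**
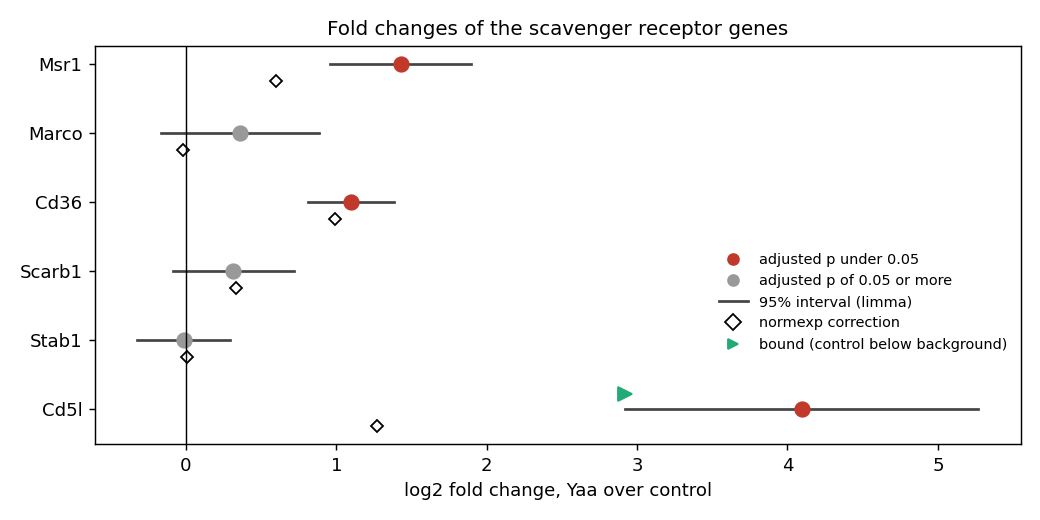
Points give the log2 fold change of Yaa over control for each gene's brightest probe on the horizontal axis, red where the adjusted p was under 0.05, with bars for the 95% interval of limma. Open diamonds give the value with normexp correction and the triangle the bound of Cd5l; the intervals of Cd5l, Msr1 and Cd36 lie above 0, and normexp moves the dim genes Cd5l (1.27), Msr1 (0.60) and Marco (-0.02) the most.

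A stretch of the Cd5l promoter is shown because Maf proteins, which bind palindromes called MARE, are known to control this gene in macrophages. RefSeq promoters on GRCm38.p6, of 250 bases before and 50 after a gene's start, were found for 4 of the 6 genes (Marco, Cd5l, Cd36 and Stab1). On the plus strand of chromosome 3 the bases before the Cd5l start, chr3:87357767-87357880, read as follows. Capitals mark TGCTGA followed after 2 bases of any kind by its reverse complement TCAGCA.
Cd5l promoter: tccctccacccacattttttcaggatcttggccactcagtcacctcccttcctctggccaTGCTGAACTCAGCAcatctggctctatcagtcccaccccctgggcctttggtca
This motif, read on both strands, starts at position -54 from the gene's start and was searched for with this promoter in view. It was found in 2 of 32851 promoters of this length (0.00609%), those of Cd5l and the predicted gene Gm33479. The same pair of sites with a spacer of 1 base was in none of the 4 promoters and in 0.00609% of all. The PU.1 core GAGGAA, searched on both strands, was in those of Marco, Cd5l and Stab1 (1 match each) and not in that of Cd36, against 28.3% of all promoters. The AP-1 motif TGANTCA, which overlaps the spacer of 1 form, was in none of the 4 and in 7.81% of all. These are matches of letters and not shown binding sites. Maf itself was at levels of 3.34, 3.18 and 3.25 in controls and 3.32, 3.58 and 3.48 in Yaa (limma adjusted p = 0.487).

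The rises were set beside those of macrophage markers on the same arrays. Of 15 such markers 13 rose, and Mertk (0.15) and Itgam (-0.50) did not pass, with a median log2 fold change of 3.85. Over all genes 2.96% were called higher. The mean level of the markers was -0.40, -0.35 and -0.51 in controls and 2.87, 3.15 and 3.57 in Yaa. Ms4a7, Fcgr1 and C1qa were well above background on 1 control array each and were kept through the Yaa arrays alone. The control mean therefore rests partly on values near background. The log2 fold changes of the markers ran from -0.50 to 7.30, and their mean was not shown to follow macrophage number. Relative to that mean, Msr1 was lower in Yaa, at -4.56, -4.79 and -4.61 against -2.56, -2.48 and -2.35 in controls, with no overlap. Cd36 went from 0.61, 0.63 and 0.78 to -1.44, -1.76 and -2.34. The differences between the strains in these relative levels were -2.19 for Msr1 and -2.52 for Cd36. Marco, Scarb1 and Stab1 were also lower relative to the markers, at -3.26, -3.30 and -3.63, without overlap. Since the marker mean rose, any gene that rose less is lower on this scale, also an unchanged one. The log2 fold change of Stab1 itself was -0.02. How many of all genes are lower on this scale was not counted, so these drops do not set the receptors apart from other genes. With normexp correction the differences were -2.20 for Msr1, -1.81 for Cd36, -2.82 for Marco, -2.46 for Scarb1 and -2.79 for Stab1. For each of these 5 genes the two-sided exact permutation p was 0.10, or 0.12 adjusted over the 6 genes, and 0.10 is the smallest p that 3 against 3 arrays allow. Cd5l was at -3.25, -5.08 and -4.93 relative to the markers in Yaa. Its control values lay at background, so its difference from controls on this scale has no settled direction, with 0.48 on the measured values and -1.53 with normexp correction. The part of macrophage number in the rises of Cd5l, Msr1 and Cd36 was not tested.

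**Figure D3:**
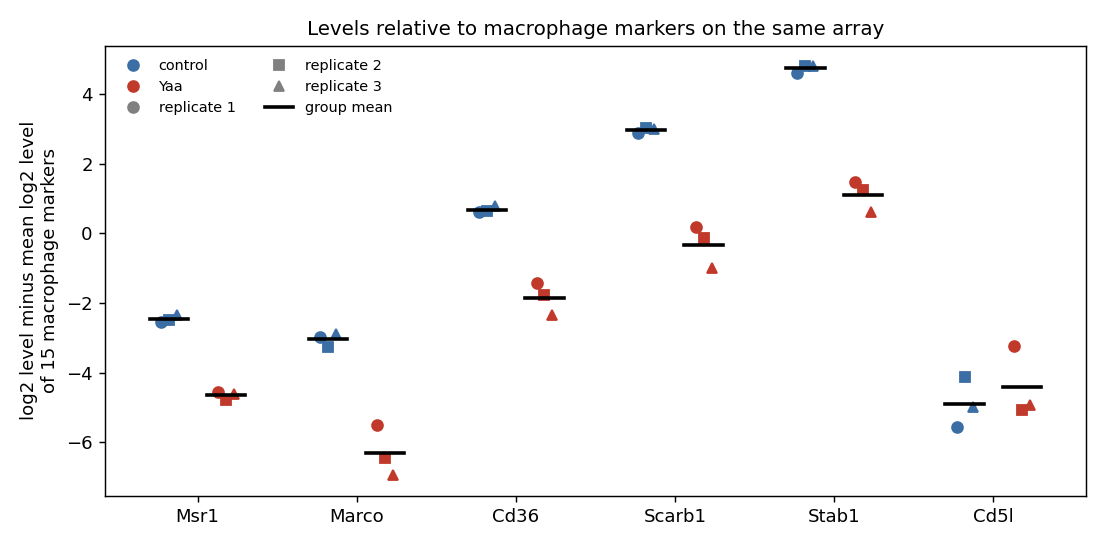
For each gene the vertical axis gives its log2 level minus the mean log2 level of 15 macrophage markers on the same array, for 3 control (blue) and 3 Yaa (red) arrays, with black lines for group means; heights of different genes cannot be compared. The Yaa arrays lie below the control arrays for Msr1, Marco, Cd36, Scarb1 and Stab1, whose own fold changes were smaller than the rise of the marker mean. The control points of Cd5l rest on signals not well above background, so its groups cannot be ordered here.

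Of 23 other scavenger receptors 17 were tested, of which 4 rose and 13 did not pass, beside 2.96% of all genes called higher. The median log2 fold change was 0.51 against -0.11 for all genes. Cd68, the lysosomal class D glycoprotein of macrophages, rose by 3.47 ± 0.24 (limma adjusted p = 0.000698). Clec7a, the beta-glucan receptor, rose by 3.31 ± 0.42 (0.00742), Cd44, the hyaluronan receptor, by 2.40 ± 0.24 (0.00249), and Lgals3, the galactose-binding galectin 3, by 2.19 ± 0.24 (0.00356). The call of Clec7a ended without control replicate 3 (limma adjusted p = 0.0523). Cd68 was at levels of 0.28, 0.61 and 0.15 in controls and 3.35, 3.91 and 4.19 in Yaa. Its groups were far apart, like those of Lgals3, at 2.97 to 3.00 and 4.65 to 5.59.

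Receptors closest in class to the 6 genes gave no further call. Stab2, the endothelial relative of Stab1, was at -1.88, -2.90 and -2.46 in controls and -1.48, 0.21 and -0.50 in Yaa (1.82 ± 0.45, limma adjusted p = 0.0929), and passed without Yaa replicate 1 (2.27, adjusted p = 0.0287). Lyve1, a further hyaluronan receptor of sinusoidal and lymphatic endothelium, was well above background on all 3 control arrays and on no Yaa array, which makes it at least 2.90-fold brighter in controls, and it did not pass the test (limma adjusted p = 0.104). Cxcl16, the class G transmembrane chemokine, was at 0.75 ± 0.20 (0.123). The lymphocyte receptors Cd6 and Cd5, which carry the same domain type as Cd5l, were at 1.98 ± 0.73 and 1.96 ± 0.73 (both with limma adjusted p = 0.253). Both were highest on Yaa replicate 3 (1.69 and 1.54), where the T cell markers had a mean level of 1.495 against -0.19 and -1.12 on Yaa replicates 1 and 2. Scara5, Olr1, Scarf1, Megf10, Cd163 and Dmbt1 were above background on too few arrays to be tested, among them Cd163, a receptor of resident macrophages, on 1 control array and no Yaa array.

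Genes that handle the lipids taken up by Cd36 and Scarb1 were higher in part. All 18 were tested, of which 4 rose and 14 did not pass, beside 2.96% of all genes called higher. The median log2 fold change was 0.27, against -0.11 for all genes. Apoc2, the activator of lipoprotein lipase, rose by 2.62 ± 0.23 (limma adjusted p = 0.00157), from levels of -0.39, -0.42 and -0.75 to 2.52, 2.09 and 1.69. Apoe, the apolipoprotein made by macrophages among other cells, rose by 1.65 ± 0.29 (0.0290). The fatty acid-binding proteins Fabp4 and Fabp5 rose by 1.31 ± 0.23 (0.0298) and 1.08 ± 0.17 (0.0198). Fabp4 was at 3.12, 3.23 and 3.69 in controls and 4.97, 4.74 and 4.28 in Yaa, with its lowest Yaa value on replicate 3, as for Cd36. With the replicate block the adjusted p of Fabp4 was 0.100.

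The calls of Apoe, Fabp4 and Fabp5 did not hold in each run with an array left out. Leaving out control replicate 1, 2 or 3 also cut the calls over all genes from 790 to 439, 412 and 399. Apoe lost its call without Yaa replicate 1 (limma adjusted p = 0.0548) and control replicates 1, 2 and 3 (0.113, 0.0843 and 0.132). Fabp4 lost its call without Yaa replicates 1 and 2 (0.0580 and 0.0897) and control replicates 1 and 2 (0.123 and 0.134). Fabp5 lost it without Yaa replicate 2 (0.0663) and control replicates 1, 2 and 3 (0.101, 0.0938 and 0.0871). With no filter on dim probes none of these 3 passed (0.111, 0.117 and 0.0931). Apoc2 passed in each alternative run.

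Among 15 transcription regulators known from macrophages and lipid handling, 14 were tested, of which 3 rose and 11 did not pass. The median was 0.37, against -0.11 for all genes, of which 2.96% were called higher. Pparg, the nuclear receptor that switches on Cd36 and Fabp4 in macrophages, rose by 1.22 ± 0.14 (limma adjusted p = 0.00490), from levels of 1.64, 1.79 and 1.55 to 2.69, 3.02 and 2.92. Its groups did not overlap and it passed in each alternative run. Irf8, an interferon regulatory factor of myeloid cells, rose by 1.79 ± 0.32 (0.0322), a call that ended without control replicate 1, 2 or 3 (0.122, 0.131 and 0.120) or with no filter on dim probes (0.118). Spi1, which encodes PU.1 and is named Sfpi1 on the array, was near background on each control array and was kept through the Yaa arrays alone. By the bound used for Cd5l it was at least 8.16-fold higher in Yaa (3.03 on the log2 scale, fitted 3.94 ± 0.70, limma adjusted p = 0.0311). Normexp correction gave Spi1 a log2 fold change of 1.38 (0.176), which lies under that bound. Its call ended without Yaa replicate 3 (0.0804) or control replicates 1, 2 and 3 (0.119, 0.0897 and 0.132), or with no filter on dim probes (0.111). Ppargc1a, the coactivator of mitochondrial genes, was at -0.61 ± 0.13 (0.0617).

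The genes whose pattern over the 6 arrays was most like each receptor's were listed by the root mean square difference of mean-centred levels, over 13063 genes with an established symbol. For Msr1 these were Unc93b1 (0.06), Lrrc33 (0.09) and Ptpn18 (0.11), and for Cd36 they were Tgfbr1 (0.09), Gpr77 (0.10) and Stk10 (0.10). For Cd5l the measure gave Cybb (0.56), Clec4e (0.57) and Fpr1 (0.60), but 3 of its 6 values lie at background, so these distances and their order are not reliable. For the genes that did not pass the test they were Wnt9a (0.07), Zfp472 (0.11) and Dclre1c (0.11) for Marco and Pkd1l2 (0.06), Gpr25 (0.08) and Tnnt1 (0.08) for Scarb1. For Stab1 they included Pex3 (0.03) and Hps6 (0.03). These distances describe 6 arrays and carry no test.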

How the data were processed

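The authors deposited scanner output in linear signal intensity from Agilent Feature Extraction 10.7.3.1, per the file headers (9.5.3 per the submitters' processing notes). This processed intensity had background removed and spatial trends fitted inside single arrays, with surrogates for dim spots and no scaling between arrays, per the file headers, so differences near background rest partly on surrogates.

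Control spots (3671) and outlier spots (121 to 166 per array) were left out, log2 was taken, spots of a probe were averaged and the array's 75th percentile over probes was subtracted. Probes were kept where at least 0.5 of their spots passed the software's well-above-background flag on all 3 arrays of a group (28598 of 55681). A gene was its brightest kept probe (20716 genes). The strains were tested against each other in limma 3.58.1 (R 4.3.3, two-sided), where 4 residual degrees of freedom gained 2.84 from the prior, and p-values were adjusted by Benjamini-Hochberg. The ± values after log2 fold changes are SE.

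Deviations from the group means correlated at 0.126, 0.205 and 0.218 between same-numbered arrays, so the replicate number was used as a block in an alternative. No label states this pairing. The source name conflicts with the other labels, as described. The members, lists and tests were chosen with earlier results of these data known. The text names each member, the list genes past the test, a few others with the smallest adjusted p and the 3 most similar genes of each member. Some items within these rules are not reported here. Outside the rules Kdr, Flt1, Eng, Plvap, Maf, Pdzk1, Lyve1, Ms4a7, Fcgr1, C1qa and the genes not tested were named after their values were seen. So were Pdpn, Flt4, Cfd, Plin1 and Cidec. Alternatives were normexp correction (offset 50), quantile and median scaling, no filter on dim probes, the block, an intensity trend with robust variances, the mean of a gene's probes and leaving out each array. The sign-flip test within pairs was added after seeing the data. limma was tested on simulated data. Figures were drawn with matplotlib 3.10.9.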

Additional observations from a re-analysis of the deposited data

How the results depend on the processing

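Of the 6 genes, 3 passed in each alternative but no filter on dim probes (2), and leaving out each array gave 2 to 3. With no filter on dim probes, a setting in which more genes entered the fit, Msr1 had a log2 fold change of 1.43 with limma adjusted p = 0.0547. Over the arrays left out its log2 fold change was 1.22 to 1.55. Marco turned to -0.023 with normexp correction, and Stab1 to 0.010 with it, 0.050 with quantile normalization and 0.025 with median scaling, with -0.065 to 0.048 over the arrays left out. For Marco and Stab1 the cause was not tested, and neither passed under any setting run. Of all genes 790 passed, 396 with no filter and 399 to 1027 over the arrays left out, and of all probes 934, 429 and 490 to 1228. With the replicate block 618 genes passed in all and 98 in place of 176 were lower, and the adjusted p by limma was 0.0295 for Msr1, 0.0239 for Cd36 and 0.0451 for Cd5l. Among the related genes named, the block ended the call of Fabp4 only. The count of lipid handling genes that rose was 1 with no filter and 1 to 5 over the arrays left out, and that of regulators 1 and 1 to 5. Cd5l, Marco, Msr1 and Spi1 were dim or near background in controls, and their fold changes were smaller or turned with normexp correction. The cause of these shifts was not tested.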
